A study of Mus musculus with 10 samples.

Results

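Eomes, T and Mixl1 are 3 transcription factor genes switched on in mesendoderm, the streak cells from which mesoderm and definitive endoderm arise. Their regions were taken from 6 deposited lists of ChIP-seq enrichment (chromatin immunoprecipitation followed by sequencing), which place HEB or SMAD2/3 on the mouse genome. A region was included if the authors listed it for 1 of the genes, or if it had no gene listed and lay within 20 kb of such a region in any list. This gave 39 of 78263 regions, of which 17 were listed for the genes and 22 had no gene listed. Eomes had 25 of them, T had 9 and Mixl1 had 5. Regions that overlapped by at least 1 bp across lists were joined, which gave 15 sites, 3 over or within 1 kb of a 5′ end (promoter sites) and 12 elsewhere (distal sites).

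The cells were the mouse embryonic stem cell (ESC) line CGR8, kept without feeders in medium with serum and LIF, and endoderm made from it in a serum-free medium. For endoderm, Activin A at 100 ng/ml was present from day 2 and chromatin was taken on day 4. The ESC+SB group received 10 µM SB431542, which blocks the activin, Nodal and TGF-beta type I receptors, for 24 hours, and the Endoderm+SB group received 10 µM with the Activin A for 48 hours, as far as the wording of the labels allows. The groups were ESC SMAD2/3, ESC HEB, ESC+SB HEB, Endoderm SMAD2/3, Endoderm HEB and Endoderm+SB HEB, with 1 ChIP library each, and SMAD2/3 was not profiled with SB431542. All come from 1 cell line, so the spread between cultures was not measured, and the comparisons set single libraries side by side with no test. The lists hold no expression values, so the labelled cell types were not checked against marker genes.

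EOMES and Brachyury, the product of T, are T-box proteins, and MIXL1 is a paired-type homeodomain protein. In the gastrulating embryo Nodal and Wnt signals turn these genes on in the primitive streak, where Brachyury serves mesoderm formation, EOMES is needed for definitive endoderm and for exit of cells from the streak, and MIXL1 for endoderm. Activated Nodal and activin receptors phosphorylate SMAD2 and SMAD3, which then enter the nucleus and act on target genes. Tcf12 encodes HEB, an E protein of the basic helix-loop-helix class, which binds E-boxes, sites of the form CANNTG.

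The lists held 4111 (ESC SMAD2/3) to 18981 (Endoderm HEB) regions with 933126 to 5051930 ChIP tags in them. Each region carries the authors' count of ChIP tags and of input (background) tags, their quotient, here called the ratio of tags, and the height of the ChIP peak, with a scaling not given in the sources used here. Median ratios were 6.36 (ESC+SB HEB) to 12.7 (Endoderm HEB). The smallest height was 25.0 in 5 lists and 28.0 in ESC+SB HEB, so a site missing from a list may still have been bound below that height. Intervals on ratios are exact 95% intervals for the tag counts alone. They do not cover the spread between libraries, and ratios were not scaled for depth.

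The 250 bases before the RefSeq transcript start are shown for the 2 members with an entry, Eomes and T, because HEB regions covered the 5′ ends of both genes in ESCs. Capitals mark E-boxes (CANNTG) and the SMAD box (CAGAC or its complement GTCTG) wherever these were found. The windows, from RefSeq on GRCm38.p6, plus strand, are on chromosome 9 from 118477939 to 118478188 for Eomes and on chromosome 17 from 8434173 to 8434422 for T, while all region coordinates below are mm9.
Eomes: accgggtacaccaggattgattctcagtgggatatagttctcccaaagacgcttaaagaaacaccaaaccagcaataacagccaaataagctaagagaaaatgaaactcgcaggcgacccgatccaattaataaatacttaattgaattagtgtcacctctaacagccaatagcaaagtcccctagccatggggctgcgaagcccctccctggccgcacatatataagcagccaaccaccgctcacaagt
T: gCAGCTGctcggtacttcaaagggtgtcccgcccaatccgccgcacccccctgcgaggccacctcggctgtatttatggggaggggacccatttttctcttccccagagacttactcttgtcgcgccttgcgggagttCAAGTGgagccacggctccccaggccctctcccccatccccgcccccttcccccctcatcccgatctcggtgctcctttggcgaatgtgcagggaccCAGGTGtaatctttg

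The T window held 3 E-boxes, CAGCTG starting 249 bases, CAAGTG 112 bases and CAGGTG 15 bases before the start. CANNTG stood in 66.2% of 32851 promoter windows of that length, CAGCTG in 13.0% and CACCTG or its complement CAGGTG in 17.2%, the last 2 being forms of CANNTG. No CANNTG was found in the Eomes window and no SMAD box in either, against 42.2% of all windows for the SMAD box. Neither window held the FOXH1 motif ATCCACA (2.78% of windows) or the T-box motif GGTGTGA (3.33%), each searched on both strands. These letters cover a small part of the regions, which were up to 4061 bp wide at Eomes and 2591 bp at T. By the authors' distances, no HEB summit at the Eomes promoter lay in the stretch searched. The ESC HEB summits stood 461 bp before the 5′ end and 489 bp inside the gene.

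By the authors' gene assignment, which leaves out the 22 regions with no gene listed, HEB was listed in ESCs for Eomes and T and not for Mixl1, and SMAD2/3 for none of the 3. Of all 21896 RefSeq protein-coding genes, 21.7% had a HEB region in ESCs and 6.58% a SMAD2/3 region. In endoderm both factors were listed for Eomes and Mixl1 and neither for T, against 20.7% of genes for SMAD2/3 and 22.2% for HEB. With SB431542 the ESC HEB list still named Eomes and T (26.6% of genes), and the Endoderm+SB HEB list named Eomes alone (20.4%). With the unassigned regions included, T also had HEB at 3 sites in endoderm, as many as in ESCs, and Eomes had 1 SMAD2/3 region in ESCs. Mixl1 had regions in Endoderm SMAD2/3 and Endoderm HEB alone under either count.

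HEB covered the Eomes promoter in both ESC libraries. From the authors' distances, its 5′ end lay at chromosome 9, 118387307 and its 3′ end at 118395249 (mm9). In ESCs 2 HEB regions separated by 16 bp covered this 5′ end, from 118385305 to 118387463 and from 118387480 to 118389390. The first held 654 ChIP and 62 input tags, a ratio of 10.5 (95% interval 8.12 to 13.9), with a height of 42.5. The second held 1178 and 78 tags, a ratio of 15.1 (12.0 to 19.2), with a height of 107, above 92.1% of the ESC HEB list. Its summit lay 489 bp inside the gene, and that of the first 461 bp before the 5′ end.

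With SB431542 in ESCs the same stretch was listed as 1 region, 118385320 to 118389380, with 2160 ChIP and 140 input tags. Its ratio was 15.4 (13.0 to 18.4), and the 2 untreated regions together came to 1832 and 140 tags, a ratio of 13.1 (11.0 to 15.7). The intervals overlap, and the treated summit, height 152, lay 4 bp from the higher untreated one. In endoderm a single HEB region remained listed at the promoter, 118387550 to 118388730, with 301 and 44 tags, a ratio of 6.84 (4.97 to 9.61) and a height of 31.0. Its ratio stood above 13.4% of the Endoderm HEB list, and its summit lay 114 bp from that of the ESC region. The log2 ratio of heights, endoderm over ESC, was -1.78 here, against a median of -0.03 and a 5th to 95th percentile range of -1.69 to 1.65 over 5134 regions paired one to one between the 2 lists. The Eomes promoter thus lay just below that range. The interval of the endoderm ratio of tags lies below that of the ESC region it overlaps and crosses that of the other ESC region. SMAD2/3 had no region at the Eomes promoter in either state, and HEB had none there in Endoderm+SB.

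The opposite order held at the distal site that begins just beyond the 3′ end of Eomes. In endoderm SMAD2/3 gave 1517 ChIP and 62 input tags there, a ratio of 24.5 (19.0 to 32.1), at a height of 206 that exceeded 98.6% of its list. HEB in endoderm gave 2121 and 61 tags over 118395393 to 118397094, a ratio of 34.8 (27.0 to 45.6), at a height of 239, above 98.2% of its list. The 2 summits were 63 bp apart, 8821 bp (SMAD2/3) and 8884 bp (HEB) from the 5′ end. HEB was also listed at this summit in ESCs, with 322 and 36 tags, a ratio of 8.94 (6.33 to 13.0) and a height of 37.1. With SB431542 in ESCs it had 300 and 35 tags, a ratio of 8.57 (6.03 to 12.5) and a height of 35.2. Both ESC libraries lay near the middle of their lists in height (48.7% and 35.8% of regions lower), whereas the endoderm library was near the top of its own.

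In Endoderm+SB this was the only HEB region at any of the 3 genes. It spanned 446 bp, from 118395924 to 118396369, against 1702 bp without the inhibitor, and held 312 ChIP and 14 input tags, a ratio of 22.3 (13.1 to 41.2). Its height was 79.0, against 239 without the inhibitor and 35.2 in ESC+SB. The log2 ratio of heights, with over without the inhibitor, was -1.60 in endoderm, above 8.61% of 4635 paired regions, whose median was -0.11 and whose 5th to 95th percentile range was -2.05 to 1.09. The ratios of tags have overlapping intervals, but they cover stretches of unlike width, 446 bp with the inhibitor and 1702 bp without, and are not like for like. In ESCs the same log2 ratio was -0.07, beside a median of 0.10 over 12072 pairs. Between the inhibited states the height was 2.25 times as high in Endoderm+SB as in ESC+SB, a log2 ratio of 1.17, above 97.4% of 3657 pairs with a median of -0.32. The HEB summits of the 4 libraries lay within 34 bp of each other.

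**Figure D1:**
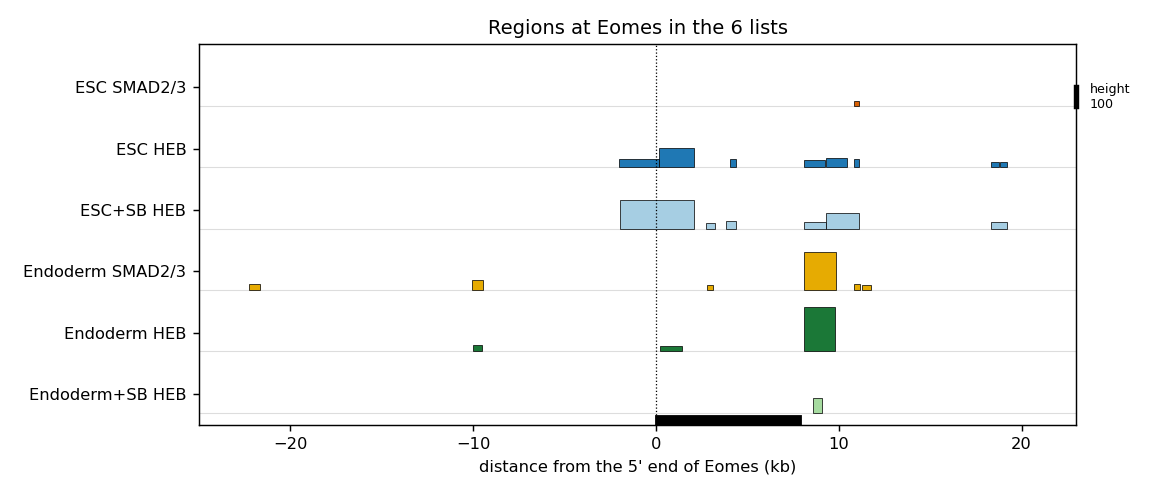
Regions at Eomes in the 6 lists, by distance from the 5′ end of the gene (kb, x axis). Each box is 1 region, its width the region and its height the deposited ChIP height (scale bar, 100), and the black bar is the gene. The tallest boxes stand at the promoter in the 2 ESC HEB lists (107 and 152) and beyond the 3′ end in the 2 endoderm lists without SB431542 (206 and 239).

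Further out, the same Eomes site held a second HEB summit that was found in ESCs alone. It lay 9969 bp from the 5′ end in ESC HEB, in a region from 118396632 to 118397770. That region had 403 and 28 tags (ratio 14.4, 9.81 to 21.9) and a height of 50.3, above 69.6% of its list. In ESC+SB HEB the summit was 2 bp away, with 677 and 50 tags (ratio 13.5, 10.2 to 18.4). Its height there was 83.9, above 88.5% of the list. The treated region, 118396636 to 118398434, also spanned a separate ESC HEB region, so the tags and ratios are not like for like. The Endoderm HEB region ran into the untreated ESC region by its edge, but its own summit was 1085 bp away. Near it lay the only ESC SMAD2/3 region at the 3 genes, at 118398124 to 118398393, with 75 and 14 tags (ratio 5.36, 3.00 to 10.3) and a height of 28.3, close to the smallest of its list. HEB in ESCs and SMAD2/3 in endoderm had regions on it with summits 12 and 25 bp from its own (ratios 9.50 and 6.57). This was the 1 place with both factors in ESCs, so 1 of 1 SMAD2/3 regions overlapped HEB, against 83.9% of that list, and 1 of 11 HEB regions overlapped SMAD2/3, against 19.8%.

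The other Eomes sites did not reach the heights of the tallest regions at the promoter and beyond the 3′ end. In endoderm, however, the HEB height at the first site described here was 33.2, against 31.0 at the promoter. A site 9795 bp before the 5′ end had SMAD2/3 (208 and 14 tags, ratio 14.9, 8.66 to 27.7) and HEB (153 and 11 tags, ratio 13.9, 7.56 to 28.5) in endoderm, with summits 41 bp apart and no region in ESCs. Another at 22068 bp before the 5′ end had SMAD2/3 alone in endoderm (ratio 9.75). Inside the gene, a site 4229 bp from the 5′ end had HEB in ESCs without and with SB431542 (ratios 10.6 and 9.88, heights 41.6 and 43.4). A second intragenic site, 2944 bp from the 5′ end, was listed for HEB with SB431542 alone in ESCs (height 29.9) and for SMAD2/3 in endoderm (height 26.9), both near the smallest height of their lists. Beyond the gene, SMAD2/3 in endoderm had a region 11643 bp from the 5′ end (ratio 4.71), and HEB in ESCs had regions at 118405620 to 118406521 (ratios 4.16 and 6.90, and 3.64 with SB431542). These HEB regions had no gene listed and lay nearer to the 5′ end of another gene, Golga4, than to that of Eomes. An ESC+SB HEB region covered the Golga4 end, from 118415162 to 118415450, so the site is placed with Eomes by the window alone.

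At T the promoter was bound by HEB in ESCs and listed in no endoderm library. The ESC HEB region, chromosome 17, 8625942 to 8628448, held 718 ChIP and 53 input tags, a ratio of 13.5 (10.2 to 18.3), at a height of 52.2. With SB431542 the region ran from 8625904 to 8628494 with 750 and 74 tags, a ratio of 10.1 (7.97 to 13.1), at a height of 53.6. The summits were 2 bp apart, the intervals of the ratios overlap, and the log2 ratio of heights was 0.04. No SMAD2/3 region was listed at any of the 4 sites of T.

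Upstream of T a pair of neighbouring HEB sites was kept between the states. The site nearer to the gene, 8622816 to 8623228 in ESCs, held 181 and 8 tags there, 148 and 14 with SB431542 and 135 and 13 in endoderm. The authors' ratios were 22.0, 10.6 and 10.4, where the first rests on 8 input tags and on an inferred background floor. Heights at this site were 36.7, 34.3 and 32.4. The site next to it, 8622233 to 8622721 in ESCs, had ratios of 7.80, 7.29 and 9.08 and heights of 35.9, 30.4 and 39.2 in the same order. Heights at both sites thus changed little while the promoter region 2676 bp away was listed in ESCs alone. A further HEB region in endoderm, 8618645 to 8618878, had 62 and 7 tags and a height of 25.1, next to the smallest of its list. None of these sites was listed in Endoderm+SB.

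Farther upstream stood regions that the authors list for T2, a neighbouring gene, and which the choice of regions therefore left out. They are described because of their values and were singled out after these were seen. In Endoderm HEB 6 such regions lay within 50 kb of the T promoter site, and 5 of them had ratios of 23.3 to 34.5 and heights of 100 to 186. The highest by ratio, 8608280 to 8609030, lay 16874 bp from the promoter site with 931 and 27 tags, a ratio of 34.5 (23.5 to 52.6). The nearest, 8612121 to 8612490, lay 13414 bp away with 443 and 14 tags (ratio 31.6, 18.7 to 58.4). The sixth region had a height of 27.1. SMAD2/3 in endoderm had 4 regions there, with ratios of 11.4 to 12.3. All 4 were on HEB regions, as were 60.5% of that list and 66.9% of its regions that were not promoter-proximal. In ESCs HEB had 2 T2 regions with ratios of 10.1 and 7.10, and SMAD2/3 had none. Of these 2, 1 overlapped an Endoderm HEB region, against 32.1% of the ESC HEB list. None of the 6 Endoderm HEB regions was listed in Endoderm+SB, and all 6 lay 16392 bp or more from the 5′ end of T2. An overlapping treated region was found for 25.3% of the Endoderm HEB list and for 19.9% of its regions that were not promoter-proximal. Among the 1984 of height 100 or more, promoter-proximal ones included, the share was 38.5%, which bears on the 5 stronger regions only. The 5 stronger regions were taller than every region of T itself, whose heights were 25.1 to 53.6.

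**Figure D2:**
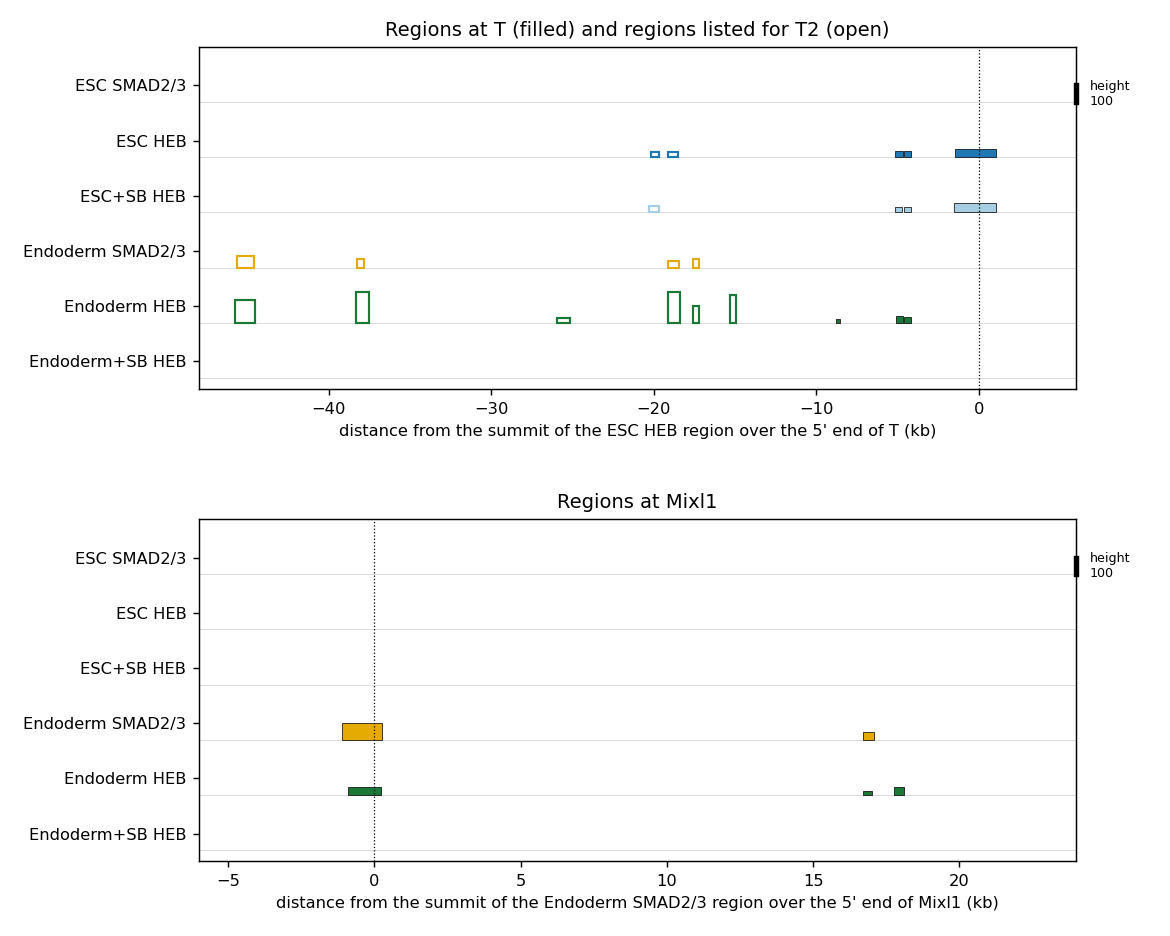
Regions near T (top) and Mixl1 (bottom) in the 6 lists, by distance in kb from a summit over the 5′ end of each gene (ESC HEB for T, Endoderm SMAD2/3 for Mixl1). Filled boxes are regions of T and Mixl1 and open boxes those listed for T2, with height as the deposited ChIP height (scale bar, 100). At T the promoter boxes are in the ESC lists (52.2 and 53.6) and the tall open boxes in Endoderm HEB (up to 186). At Mixl1 all 5 boxes are in the endoderm lists without SB431542.

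Mixl1 was listed in endoderm alone. SMAD2/3 covered its 5′ end from 182626500 to 182627845 on chromosome 1 with 772 ChIP and 42 input tags, a ratio of 18.4 (13.5 to 25.7), at a height of 103 that exceeded 94.6% of the list. HEB covered it from 182626712 to 182627825 with 337 and 36 tags, a ratio of 9.36 (6.63 to 13.6), at a height of 49.1. The summits were 13 bp apart. The order of the factors was the reverse of that at the distal Eomes site, where HEB had the higher ratio and height, with overlapping ratio intervals. The 2 lists were not scaled to each other, so the values are set side by side only.

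On the side of higher coordinates Mixl1 had 2 distal sites in endoderm. At 182644309 to 182644672 SMAD2/3 had 142 and 13 tags (ratio 10.9, 6.19 to 21.0) and HEB, with a summit 18 bp away, 80 and 12 tags (ratio 6.67, 3.61 to 13.4) at a height of 25.3. At 182645359 to 182645692 HEB alone was listed, with 164 and 8 tags, a ratio of 20.5 (10.2 to 48.3) and a height of 50.5. The nearer of these 2 sites lay 16461 bp from the Mixl1 promoter site. Both had no gene listed and lay nearer to the 5′ end of another gene, Acbd3. An Endoderm SMAD2/3 region covered that end, from 182655753 to 182656676. The sites are thus placed with Mixl1 by the window alone. No region of Mixl1 was listed in ESC HEB, ESC+SB HEB, ESC SMAD2/3 or Endoderm+SB HEB.

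**Figure D3:**
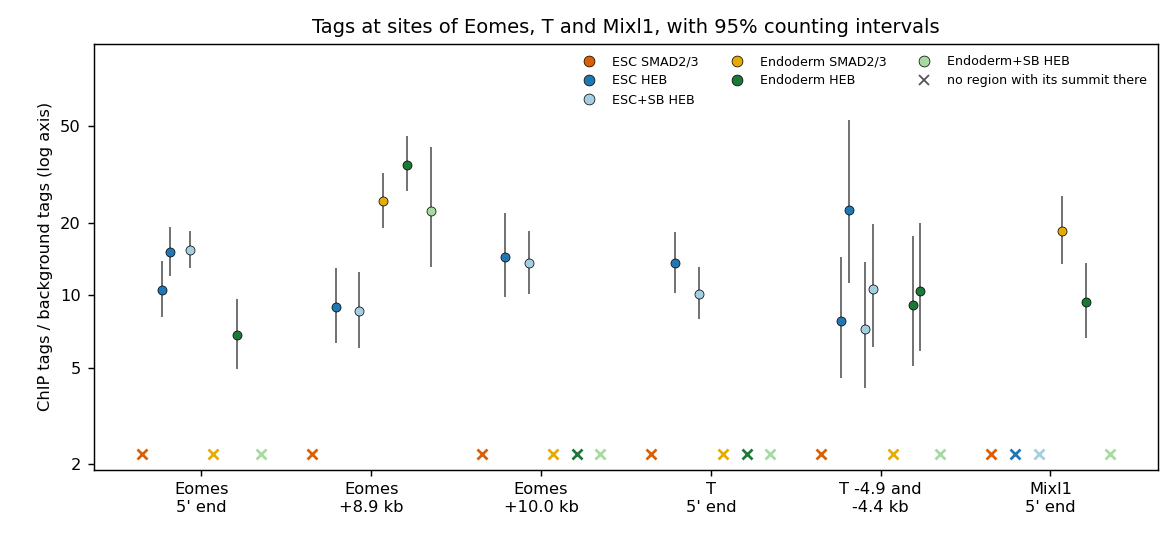
ChIP tags over background tags (y axis, log scale) at 6 places, by library. Points are single regions, bars are exact 95% intervals for the counts, and crosses mark a library with no region whose summit lies there. At the Eomes promoter the endoderm HEB point (6.84) lies below the ESC HEB points (10.5 and 15.1). At the site beyond the 3′ end of Eomes, HEB points in endoderm without and with SB431542 (34.8 and 22.3) lie above those in ESCs (8.94 and 8.57). The endoderm SMAD2/3 point there (24.5) has no ESC SMAD2/3 point to be set against.

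The 15 sites were counted by place, factor and state. Of the 3 promoter sites HEB was listed at 2 in ESCs, 2 in ESC+SB, 2 in endoderm and 0 in Endoderm+SB, and SMAD2/3 at 0 in ESCs and 1 in endoderm. Of the 12 distal sites HEB was listed at 5 in ESCs, 6 in ESC+SB, 7 in endoderm and 1 in Endoderm+SB, and SMAD2/3 at 1 in ESCs and 6 in endoderm. By state, 3 sites were found in ESC lists alone, 7 in endoderm lists alone and 5 in both. Sites of 1 state were common over the lists too, where 32.1% of ESC HEB and 29.1% of Endoderm HEB regions overlapped HEB in the other state. With so few sites the 2 classes were not compared by a test.

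Between the factors in endoderm, 4 of 8 SMAD2/3 regions overlapped HEB, against 60.5% over the whole list, and 4 of 9 HEB regions overlapped SMAD2/3, against 35.3%. The 4 SMAD2/3 regions on HEB had heights of 45.2 to 206, and the other 4, all at Eomes, had heights of 26.1 to 33.6. Between the states, 5 of 11 ESC HEB regions overlapped an Endoderm HEB region (32.1% over the list) and 4 of 9 the other way (29.1%). Of the 8 Endoderm SMAD2/3 regions, 1 overlapped ESC SMAD2/3 (14.2%) and 2 overlapped ESC HEB (29.3%).

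HEB regions of the 3 genes were compared with and without SB431542 in each state. In ESCs all 11 HEB regions overlapped a region of the treated list, where 74.8% of the list did, and 8 of the 9 treated regions overlapped an untreated one (76.2%). In endoderm 1 of 9 HEB regions overlapped a treated region, where 25.3% of the list did. In the upper 50% of both lists by ratio of tags this was 1 of 3, where 16.0% did, so the members' share lay below that of the list in the one count and above it in the other. The 1 kept had a height of 239, and the 8 without a treated counterpart had heights of 25.1 to 50.5. Among the promoter-proximal regions of the Endoderm HEB list 56.2% had a treated counterpart and among the others 19.9%, beside 0 of 2 and 1 of 7 at the 3 genes. Regions at 1 gene are not independent, so these counts are descriptions. Endoderm+SB cells received the inhibitor during differentiation, and a change in cell state and a change in HEB binding within a state cannot be told apart.

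The other streak genes put Eomes, T and Mixl1 in context. These were 25 regulators and signals of the primitive streak, chosen with earlier results of these data known. HEB was listed for 18 of them in ESCs, 16 in ESC+SB, 18 in endoderm and 9 in Endoderm+SB. SMAD2/3 was listed for 8 in ESCs and 19 in endoderm. Over all protein-coding genes the shares were 21.7, 26.6, 22.2 and 20.4% for HEB and 6.58 and 20.7% for SMAD2/3, in the same order. Tdgf1, the gene of the Nodal co-receptor, had the highest SMAD2/3 ratio in ESCs (34.6), and Nodal the highest in endoderm (66.6). Snai1, a repressor of epithelial genes, led HEB in ESCs (83.6), ESC+SB (33.4) and endoderm (75.3), and Wnt3a led in Endoderm+SB (14.8).

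Patterns were compared by the authors' gene assignment alone, without unassigned regions. The pattern of Eomes, assigned a region in every list but ESC SMAD2/3, was shared by 6 of these 25 genes (Gsc, Lhx1, Otx2, Fgf5, Sp5 and Snai1), and by 9.14% of the 10730 genes listed anywhere. That of Mixl1, both factors in endoderm and nothing else, was shared by Cer1 (ratios 23.4 and 40.8), the gene of a secreted Nodal antagonist, and Fgf8 (6.48 and 12.8), and by 3.24% of genes. That of T, assigned HEB in the 2 ESC lists alone, was shared by 0 of 25 and by 7.14% of genes. Of 4 streak genes listed for HEB in ESCs and not in endoderm (Wnt3a, Fgf4, Bmp4 and Lefty2), each differed from T in having SMAD2/3 in at least 1 state.

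Among 14 other genes of the T-box family, HEB was listed for 10 in ESCs, the same number in ESC+SB, 9 in endoderm and 4 in Endoderm+SB. SMAD2/3 was listed for 1 of them in ESCs (Tbx3) and for 4 in endoderm. The shares over all protein-coding genes were 21.7, 26.6, 22.2 and 20.4% for HEB and 6.58 and 20.7% for SMAD2/3, in the same order. Tbr1, the closest relative of Eomes, had the pattern of T, with HEB ratios of 7.32 in ESCs and 6.29 with SB431542. The 10 genes listed for HEB in ESCs and in ESC+SB were the same, and 6 of the 9 genes listed in endoderm were not listed in Endoderm+SB. Of the 4857 protein-coding genes listed in Endoderm HEB, 42.7% were not listed in Endoderm+SB, and of the 18 streak genes listed there 11 were not.

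**Figure D4:**
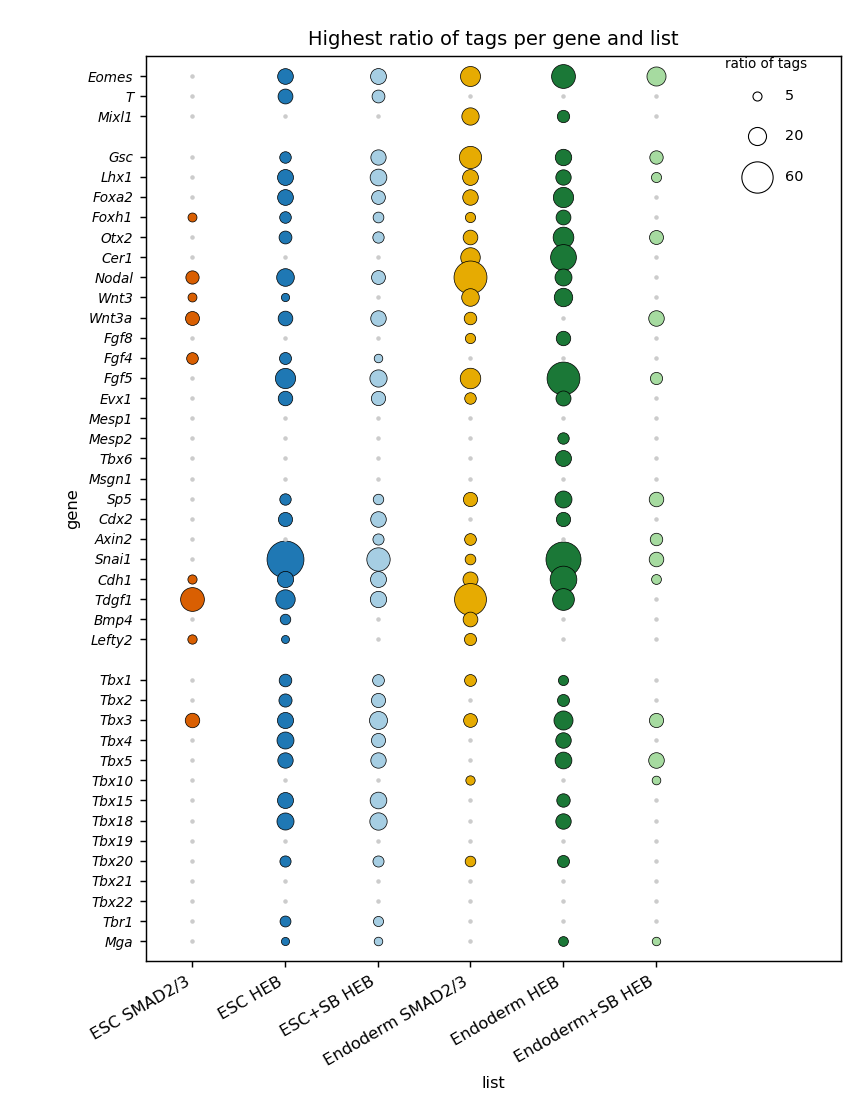
Highest ratio of tags per gene (rows) in each list (columns), for Eomes, T and Mixl1 (top), 25 other streak genes (middle) and 14 other T-box genes (bottom). The area of a circle is proportional to the ratio, and a grey dot marks a gene with no region listed. Cer1 and Fgf8 share the empty ESC columns of Mixl1, and Tbr1 shares the 2 circles of T.

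Likeness was also measured as the Euclidean distance between log2(highest ratio + 1) over the 6 lists, with 0 for a gene that was not listed. Nearest to Eomes were Plk1s1 (distance 0.54), Maml3 (0.60) and 1110012J17Rik (0.63). Nearest to T were Vgll3 (0.03), Hpse (0.03) and Plbd1 (0.05), and nearest to Mixl1 Sh3kbp1 (0.06), Ddx31 (0.08) and Usf2 (0.09). None of these belongs to the streak or T-box lists, and the small distances of the last 6 rest on 2 lists with a value each.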

How the data were processed

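The instrument was a Genome Analyzer II, per the labels' protocols. CASAVA 1.8.2 and mm9 appear in the submitters' processing notes, with an aligner, peak caller and annotation not given in the sources used here. Deposited by the authors was 1 region list per ChIP library, holding whole-number counts of ChIP and background tags, their ratio (fold over background), the signal (peak height) and a score headed as −log10 of a q-value, per the file headers. The score was too large for that scale and was not used. Input libraries (4) entered through the background counts. Where the background is low the deposited ratio uses a floor in its place. Coordinates are printed as deposited, with their first base (0 or 1) not given in the sources used here.

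Regions listed for several genes were counted once. In shares over whole lists, such a region was classed as promoter-proximal or not by its alphabetically first gene alone. Lists were compared in Python 3.11.15 (pandas 2.3.3, scipy 1.17.1) by overlap of 1 bp or more. The overlap code was tested on simulated data, where it recovered 5000 of 5000 planted states, and gave the counts of bedtools for 30 of 30 ordered pairs of lists. Ratio intervals are Clopper-Pearson at 95%. Height ratios between lists are given beside those of all regions that overlap one to one. Named were the 3 members, the streak or T-box genes highest in a list or sharing a pattern with a member, and the 3 genes of nearest pattern. The members and lists were chosen with earlier results of these data known. RefSeq names and promoter windows (GRCm38.p6) were matched by symbol, 2 of 3 members having a window. Alternatives were the assignment rule, the window, the list threshold and the overlap required.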

Additional observations from a re-analysis of the deposited data

How the results depend on the processing

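Of 40 recomputed counts, 25 stayed within 1.5 times the reported value and 15 did not. With regions listed for the gene only, the number of regions was 0 in ESC SMAD2/3, 5 in ESC HEB, 5 in ESC+SB HEB, 3 in Endoderm SMAD2/3 and 3 in Endoderm HEB. Windows of 10 or 50 kb left all 6 counts within that limit. With the upper 50% of each list by ratio of tags, the counts were 0 for ESC SMAD2/3, 5 for Endoderm SMAD2/3 and 3 for Endoderm HEB. With lists limited to the length of the shortest, ESC HEB and ESC+SB HEB had 4 each, Endoderm SMAD2/3 had 3 and Endoderm HEB had 2. Fewer regions enter in each case by construction. In the upper 50%, SMAD2/3 regions on HEB came to 0 in ESCs and 2 in endoderm, and ESC HEB regions on Endoderm HEB to 2. The number of regions also found with SB431542 was 8 and 11 in ESCs and 1 in endoderm under the 2 alternatives. In the upper 50% this was 8 of 8 in ESCs (68.9% of the list) and 1 of 3 in endoderm (16.0% of the list), against 1 of 9 (25.3%) in the full lists, so the endoderm share is not stable. No paired analysis was possible because each group had 1 library and no result came from a test. Sites near the smallest height of a list, such as those of T and Mixl1 at 25.1 and 25.3, are the least certain.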
